A study of Glycine max with 30 samples.

Results

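Trimethylation of histone H3 at lysine 4 (H3K4me3) was mapped by chromatin immunoprecipitation and sequencing (ChIP-seq) in soybean, Glycine max cultivar Williams 82, and the places described here carried a peak of this mark in seedlings and in no list of developing embryos. The peak lists of the 5 stages were merged wherever peaks overlapped by at least 1 bp. A merged region was kept when it was at least 200 bp wide, came from the seedling list alone, and did not overlap a mid-maturation H3K27me3 island that lacked any overlap with a seedling island. This rule kept 3719 of 59325 merged regions (6.27%), each of them a single seedling peak. The regions were thus chosen by the called peaks of H3K4me3 at all stages and by H3K27me3 islands at mid-maturation and in seedlings, so that the scores and widths below describe the choice and test nothing. An island is a stretch of windows enriched for H3K27me3 over the H3 control. A further 2204 seedling-only regions were narrower than 200 bp, and 96 wide enough ones were removed by the H3K27me3 clause.

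All plants were of 1 cultivar and no other treatment is named in the labels. Seeds measured 2.5 to 3.5 mm when cotyledon-stage embryos were taken and 6 to 7 mm at early maturation. They weighed 200 to 250 mg at mid-maturation and, once yellow, 230 to 500 mg at late maturation. Seedlings were harvested 8 days after sowing, and embryos and seedlings alike mix many cell types. Each stage had 2 replicates for each of H3K4me3, H3K27me3 and total H3, the control, which makes 30 libraries. The lists analysed pool both replicates of a stage, so there is 1 list per stage and mark, no replicate error and no test between stages; intervals below are 95% Wilson intervals, which cover counting error only and treat neighbouring regions as independent, which they are not. Late maturation embryos were ground frozen and crosslinked for 15 minutes on ice rather than for 10 minutes under vacuum, and stage and protocol cannot be told apart there. Tissue identity was not checked against marker genes, because genes were not assigned to positions here.

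H3K4me3 is placed around the start of genes that are being transcribed or are ready to be, and its appearance at a new place usually accompanies the use of a start site. H3K27me3 is written by Polycomb repressive complex 2 and covers genes that are kept silent in a tissue, often over several kilobases. In plants the passage from embryo to seedling ends the seed storage programme and starts photosynthetic growth, and Polycomb repression takes part in shutting the embryo genes off. Where both marks are found at one place in a mixed tissue, they may lie on the same nucleosomes or in different cells, and ChIP-seq of whole organs does not separate these.

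Most seedling-only regions were weak and narrow, as were most H3K4me3 regions of any other single stage. Their median width was 390 bp, with quartiles of 267 and 679 bp, whereas the other 49172 seedling peaks had a median width of 959 bp. Only 472 regions (12.7%) reached 1000 bp, where 56.1% of all merged regions of at least 200 bp did, and 53 reached 2000 bp. The authors' score of a peak, used here only to rank peaks within the seedling list, had a median of 9.81 in these regions and 69.2 in the other seedling peaks. Of the 3719 regions, 2407 (64.7%) scored below the lower quartile of the whole seedling list, 13.4, and 109 (2.93%) reached its median, 60.6. Score and width moved together across the regions (Spearman's rho 0.71 over 3719 regions, which share 1 library pool). Regions of 200 to 299 bp had a median score of 6.34, those of 1000 to 1999 bp 34.8, and those of 2000 bp or more 54.3. The other single-stage groups were narrower, with median widths from 302 bp (early maturation) to 367 bp (late maturation). Of these groups, late-maturation-only regions most often reached the median score of their own list, at 2.65%. The seedling list was the longest, with 52891 peaks against 41536 to 47697 in the embryo lists.

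**Figure D1:**
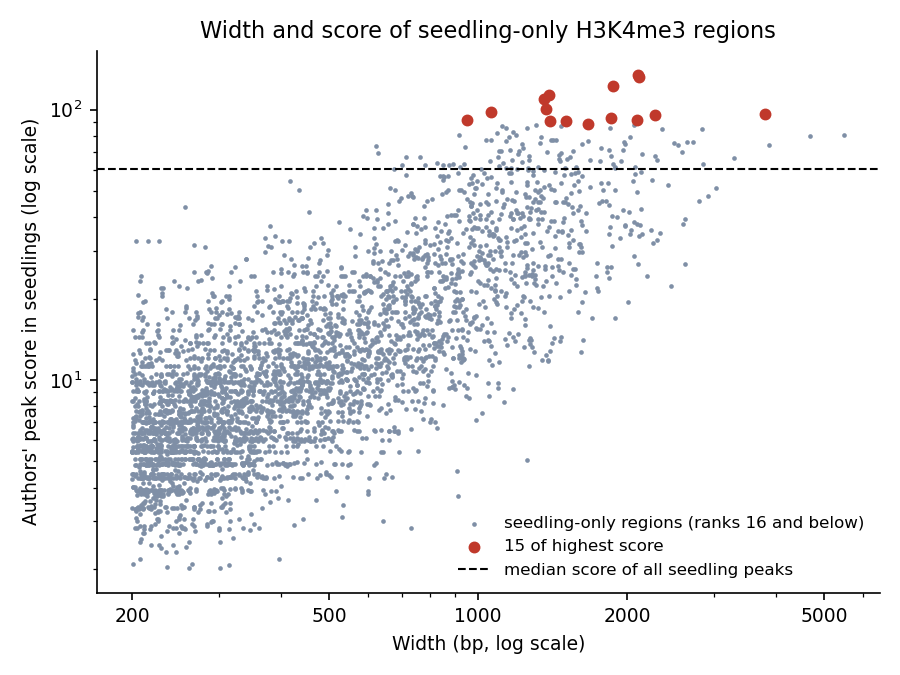
Width in bp (log scale) against the authors' seedling peak score (log scale) for the 3719 seedling-only H3K4me3 regions, 1 point per region, with the 15 of highest score in red and the median score of all seedling peaks, 60.6, as a dashed line. Most points lie below 1000 bp and below the line, and 109 reach it.

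The minimum width separated regions of like score. The 3 highest-scoring regions of exactly 200 bp, on chromosomes 15, 7 and 8, scored 10.3, 9.81 and 9.81. The 3 highest-scoring ones of 199 bp, just outside, lay on chromosomes 8, 1 and 7 and scored 12.9, 11.5 and 11.0. The seedling and cotyledon lists held 5145 and 3309 peaks under 200 bp, the other lists between 362 and 895. The minimum width applied to merged regions, so narrow cotyledon peaks could still remove a seedling region, and the narrowest peak differed between lists, at 124 bp in seedlings and 129 bp at the cotyledon stage against 177 to 197 bp in the others. The overlap rule likewise separated regions that nearly met. In 1 region, on chromosome 11 from 3330760 to 3330972, the seedling peak began where a late maturation peak ended, with 0 bp between them. For 64 regions an embryo peak lay within 50 bp.

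A small group stood out by score. The strongest region lay on chromosome 8 from 44127084 to 44129190, was 2107 bp wide and scored 134, above 86.3% of all seedling peaks. It carried no H3K27me3 island at any stage, and the nearest embryo peak, of mid-maturation, was 6228 bp away. Islands nevertheless lay nearby at every stage, the cotyledon one 2010 bp away and the seedling one 3010 bp away. The next region, on chromosome 9 from 5079944 to 5082062, scored 132 and had a cotyledon-stage peak 558 bp away. Another, on chromosome 13 from 31421611 to 31423487, scored 122 and overlapped a cotyledon island of fold 1.49 over control but no island of a later stage.

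The 15 regions of highest score ran from 88.2 to 134 in score and from 948 to 3800 bp in width, and were spread over 13 chromosomes. Of these, 9 (60%) overlapped no H3K27me3 island at any stage, where 68.3% of all merged regions did not, and 2 (13.3%) overlapped an island at all 5 stages, against 15.8%. An embryo H3K4me3 peak lay within 2 kb of 5 of them. After the 3 strongest, named above, the next 3 of the 15 spanned 35394589 to 35395978 on chromosome 16 (score 113), 61075223 to 61076578 on chromosome 18 (score 109) and 17375746 to 17377114 on chromosome 7 (score 100.4). None of the 3 lay closer than 8945 bp to an island of any stage. These are places where neither mark was called in any embryo list. Of the rest of the 15, the 5 that are not described below spanned 36717978 to 36720252 of chromosome 10 (score 95.7), 47704685 to 47706780 of chromosome 4 (score 92.0), 34743442 to 34744389 of chromosome 5 (score 92.0), 12056595 to 12057992 of chromosome 2 (score 90.7) and 15933910 to 15935579 of chromosome 5 (score 88.2). Of these 5, the one on chromosome 10 overlapped an island, of fold 1.44 at late maturation, and the others none.

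Breadth picked out partly other regions. The widest, on chromosome 16 from 7007989 to 7013484, spanned 5496 bp with a score of 80.3, and its nearest island at any stage was 21316 bp away. On chromosome 19 a region from 42815297 to 42819994 spanned 4698 bp with a score of 80.2, and another from 739941 to 743805 spanned 3865 bp with a score of 74.2. The latter overlapped an island at every stage, with a fold of ChIP over control, as the authors give it, of 4.39, 2.79, 2.77 and 2.31 in embryos from the youngest to the oldest and of 2.59 in seedlings. Both wide and strong, with 3800 bp and a score of 96.1, was the span 36096468 to 36100267 of chromosome 11. It overlapped a cotyledon island of fold 3.71 and no later one. The fifth, on chromosome 17 from 13076357 to 13079642, was 3286 bp wide and overlapped none.

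**Figure D2:**
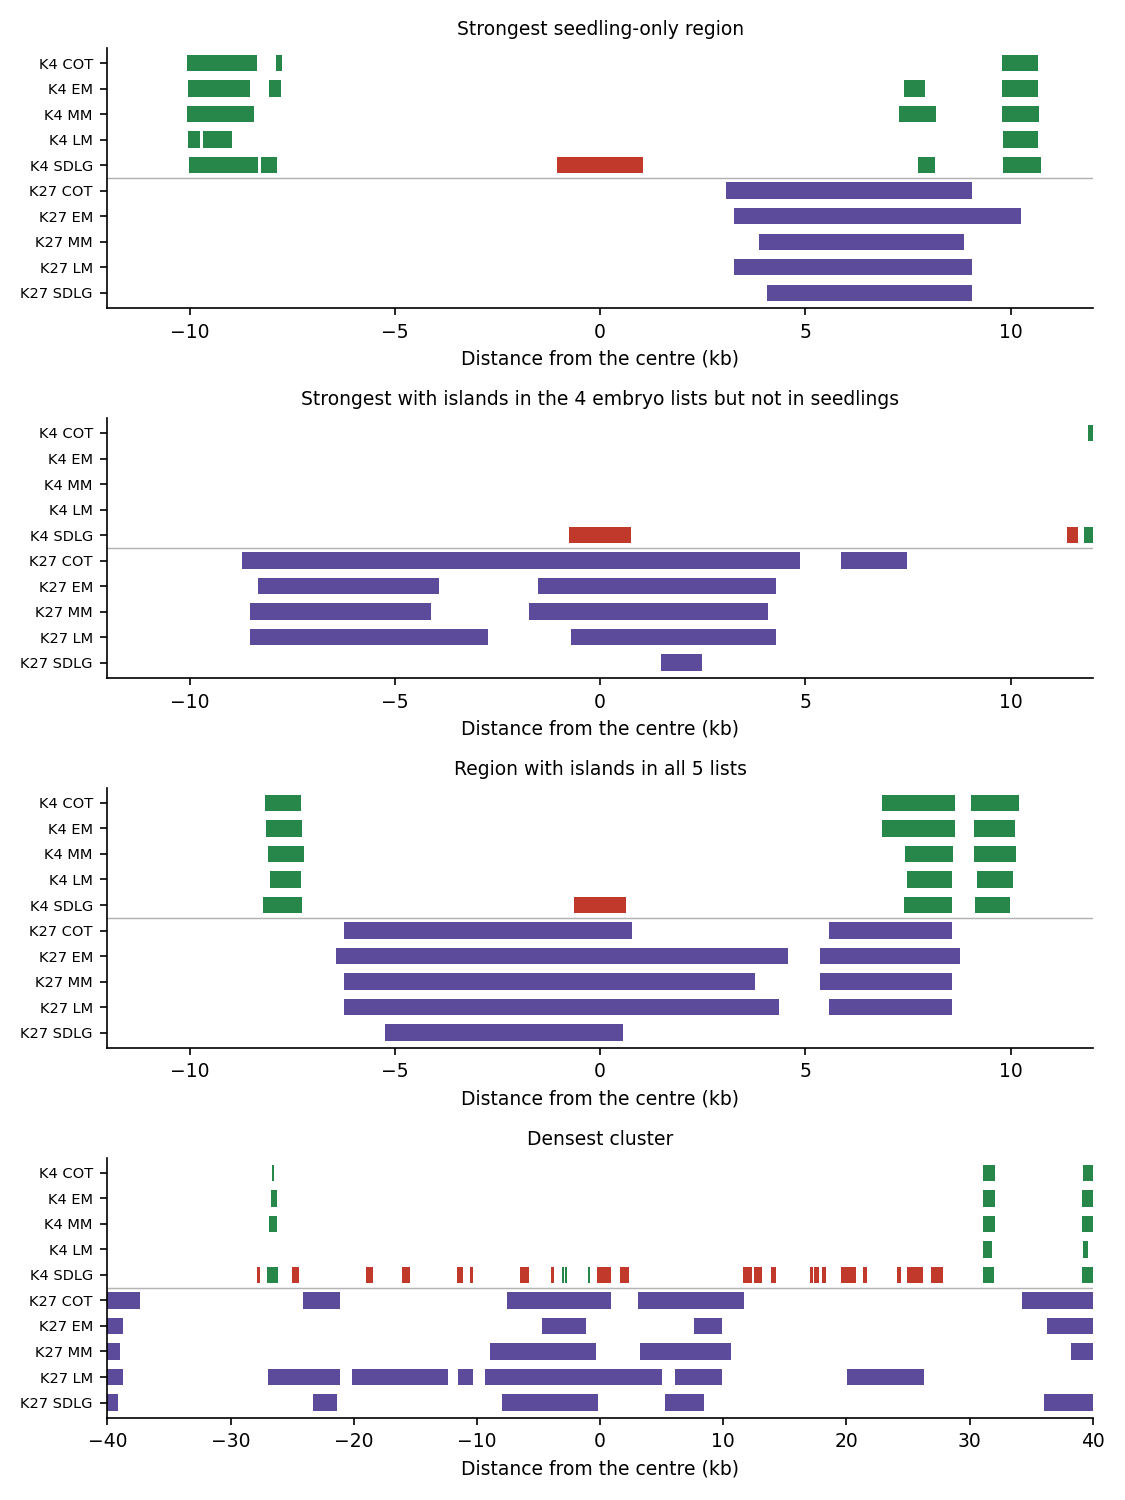
Peaks and islands around 4 places, as bars at their distance in kb from the centre, with H3K4me3 lists (K4) above and H3K27me3 lists (K27) below in the order cotyledon stage (COT), early (EM), mid- (MM) and late maturation (LM) and seedlings (SDLG). Seedling-only regions are red, other H3K4me3 peaks green (in the cluster, the narrow green seedling peaks near the centre are under 200 bp) and islands purple. The first 3 panels show the strongest region on chromosome 8, the region on chromosome 1 whose islands are in the 4 embryo lists but 729 bp away in seedlings, and the region on chromosome 6 with islands in all 5 lists; the last shows the 22 regions on chromosome 9.

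H3K27me3 was then followed at the same places through development. Islands overlapped 1425 regions at the cotyledon stage (38.3%, interval 36.8 to 39.9), where the background over all 56109 merged regions of at least 200 bp was 26.5%. For early maturation islands the share was 29.8% (28.4 to 31.3) against 20.6%, and for mid-maturation islands 28.7% (27.3 to 30.2) against 19.1%. It was 35.7% (34.1 to 37.2) against 23.4% for late maturation, and 33.9% (32.4 to 35.4) against 23.0% for seedlings. The seedling excess was lost with islands of a fold of at least 3, which overlapped 7.99% of the regions against 8.26% of all merged regions. With all islands, the order of the stages was the same in seedling-only and in all merged regions, with the cotyledon stage highest and mid-maturation lowest. The cotyledon, early and late maturation islands were not used by the rule, while the mid-maturation share is lowered by it, since the clause removed 96 regions with such an island.

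Regions of other single stages gave shares on both sides of these. Seedling islands overlapped 55.7% (53.4 to 57.9) of the mid-maturation-only regions, which were narrower, with a median of 306 bp, and 22.5% (20.8 to 24.4) of the late-maturation-only regions, with a median of 367 bp. For the 650 early-maturation-only and 658 cotyledon-only regions the share was 23.5% and 23.9%. Of the 5 single-stage groups, mid-maturation-only regions had the highest share with the islands of every stage and seedling-only regions the next.

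**Figure D3:**
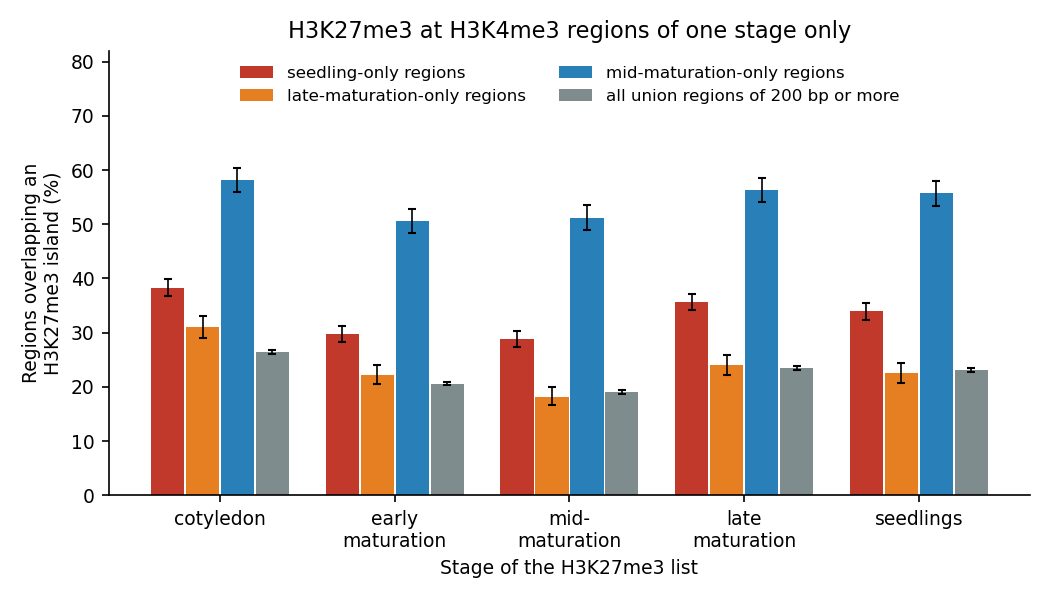
Percentage of H3K4me3 regions overlapping an H3K27me3 island of each stage by at least 1 bp, with 95% Wilson intervals as error bars, for the 3719 seedling-only regions, 2078 late-maturation-only regions, 1866 mid-maturation-only regions and all 56109 merged regions of at least 200 bp. Seedling-only regions lie above all regions and below mid-maturation-only regions at every stage.

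The excess over all regions moved with width and score. Among regions of 200 to 299 bp, 34.9% of the seedling-only regions (32.3 to 37.6) and 36.0% of all merged regions (34.6 to 37.5) overlapped a seedling island. Among those of 300 to 499 bp the shares were 38.4% (35.6 to 41.3) and 40% (38.8 to 41.2), and among those of 500 to 999 bp 32.9% and 33.1%. The intervals overlapped in these 3 classes, but all merged regions include the seedling-only ones. Regions of 300 to 499 bp present in seedlings and in at least 1 embryo list gave 48.3% (46.2 to 50.4), above the seedling-only interval. At 200 to 299 bp such regions gave 39.0% (34.5 to 43.7), and at 500 to 999 bp 34.4% (33.5 to 35.3). From 1000 to 1999 bp, 24.3% of 419 seedling-only regions (20.5 to 28.7) overlapped a seedling island, against 12.7% of all regions (12.3 to 13.1). The 53 regions of 2000 bp or more had 6 overlaps (11.3%, 5.29 to 22.6), against 17.1% of all regions of that width (16.1 to 18.1), which lies within the interval. Shared regions, present in seedlings and in at least 1 embryo list, gave 45.3% (44.0 to 46.6) when their seedling score lay between the quartiles of the seedling-only scores, 6.34 and 17.9, where seedling-only regions gave 35% (32.9 to 37.2). No test was made between these classes, since regions are not replicates.

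**Figure D4:**
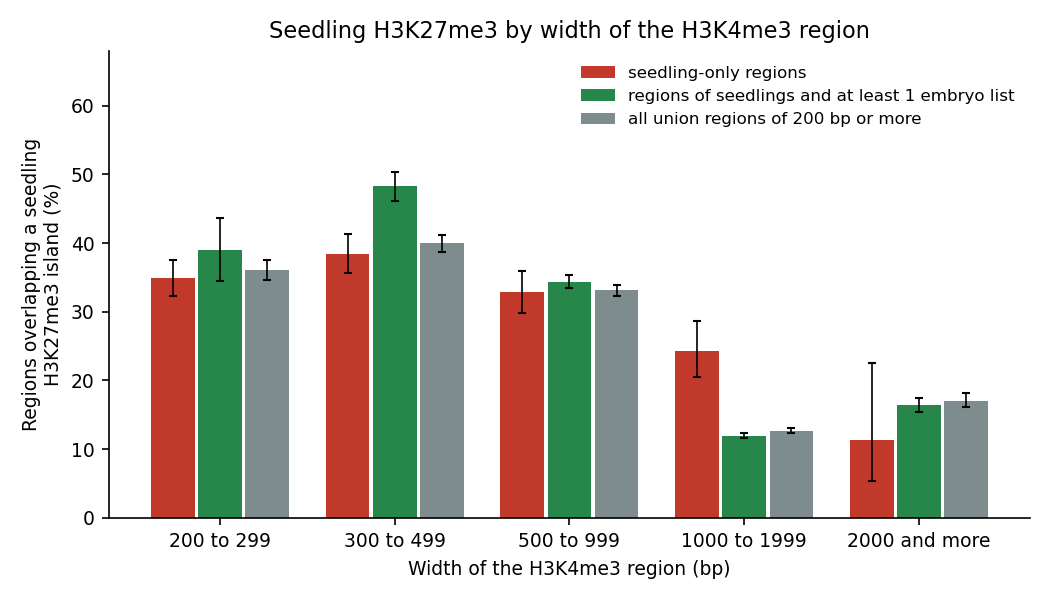
Percentage of H3K4me3 regions overlapping a seedling H3K27me3 island by class of width in bp, with 95% Wilson intervals as error bars, for seedling-only regions, for regions of seedlings and at least 1 embryo list, and for all merged regions of at least 200 bp, which include the other 2. The seedling-only share lies above both others at 1000 to 1999 bp, 24.3% against 12.7% of all regions, and below both in the narrower classes and, at 11.3%, in the widest.

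Stronger seedling-only regions overlapped seedling islands in a smaller share. In 4 classes cut at the quartiles of the score, from lowest to highest, the share was 35.8% (32.8 to 38.8), 35.6% (32.5 to 38.8), 34.6% (31.6 to 37.7) and 29.6% (26.8 to 32.6). Among the 109 regions at or above the median score of the list, 18 did (16.5%, 10.7 to 24.6), and 70 of them (64.2%) carried no island at any stage, against 68.3% of all merged regions. For shared regions with a score at or above that median the share was 7.59% (7.27 to 7.91). For cotyledon islands the 4 classes had no such order, with 36.2%, 39.3%, 40.2% and 37.7%. Among the 109, however, the islands of all embryo stages were also fewer than among all seedling-only regions, with 31.2%, 18.3%, 15.6% and 21.1% from the youngest stage to the oldest.

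Seedling-only regions carried H3K27me3 islands more often than all merged regions, both at only some stages and at all 5. The larger difference was in islands at all 5 stages. These patterns were not matched for width, and all merged regions were wider, with a median of 1081 bp against 390 bp. Only from 1000 to 1999 bp did seedling islands overlap a larger share of seedling-only than of all merged regions, as given above. Islands at 1 to 4 of the 5 stages were found at 748 regions (20.1%), against 15.9%. No island was found at any stage at 2052 regions (55.2%), where this held for 68.3% of all merged regions, and an island at all 5 stages at 919 (24.7%), against 15.8%. Among the mixed patterns, cotyledon islands alone were found at 138 regions, late maturation islands alone at 107 and seedling islands alone at 76. Of the 1591 regions with an island in any embryo list, 1185 also had one in seedlings and 406 did not. The clause shaped this split, since the 96 regions it removed had a mid-maturation island and none in seedlings. No share over all merged regions is set beside this split or the single-stage counts. Where a seedling island was present, 89.3% of the regions lay wholly inside it, against 71.6% of the wider shared regions.

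Regions that joined H3K4me3 with H3K27me3 in seedlings had their highest score on chromosome 17, from 5696503 to 5697562, with a score of 98.2. Its embryo islands had folds of 2.95, 2.19, 2.28 and 2.82 from the youngest stage to the oldest, and its seedling island 2.02. The next, on chromosome 10 from 45030090 to 45031948, scored 93.3 and had folds of 3.31, 3.33, 3.61, 1.90 and 2.33 in the same order. The region with the highest cotyledon fold of the 5 strongest, and drawn on the map for that reason, lay on chromosome 6. It spanned 7560406 to 7561662, or 1257 bp, scored 85.5 and had folds of 7.07, 5.60, 5.33, 3.57 and 2.33. Its seedling fold was the lowest of the 5, and islands covered 10.0, 14.4, 13.2, 13.6 and 5.80 kb of the 20 kb around its centre. At 47031999 to 47033192 of chromosome 14 (score 80.3) the folds were 2.72, 2.25, 2.99, 2.39 and 2.55, so the seedling fold there was above those of early and late maturation. The last of the 5, at 49517792 to 49520507 of chromosome 2 (score 75.9), had folds of 2.02, 1.73, 1.72, 1.63 and 1.47. The same 5 regions were also the strongest with an island at all 5 stages.

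Over the 919 regions with islands at all 5 stages, the median fold was 4.23, 3.73, 3.97 and 3.02 in embryos from the youngest stage to the oldest, and 2.63 in seedlings. All 8872 merged regions with islands at all 5 stages had medians of 4.43, 3.88, 4.04, 2.91 and 2.93. Against this background the median was lower in seedlings, at the cotyledon stage and at early and mid-maturation, and higher at late maturation only. The median fold of all islands differed between lists, from 2.35 in seedlings to 3.09 at mid-maturation. Each fold was therefore also set against the median of its own list. The fold in seedlings, relative to its list, was lower than that at mid-maturation in 620 of the 919 regions (67.5%), against 58.6% of all regions with islands at all 5 stages. Relative to late maturation it was lower in 65.8%, against 48.7%. The 271 late-maturation-only regions of this kind had their late maturation median at 2.65, under the 2.91 of all regions. The 858 mid-maturation-only regions had 4.40 at mid-maturation, above the 4.04 of all regions. A link between the stage of the H3K4me3 peak and the fold was not tested. The H3K27me3 clause was applied to the seedling-only regions alone.

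**Figure D5:**
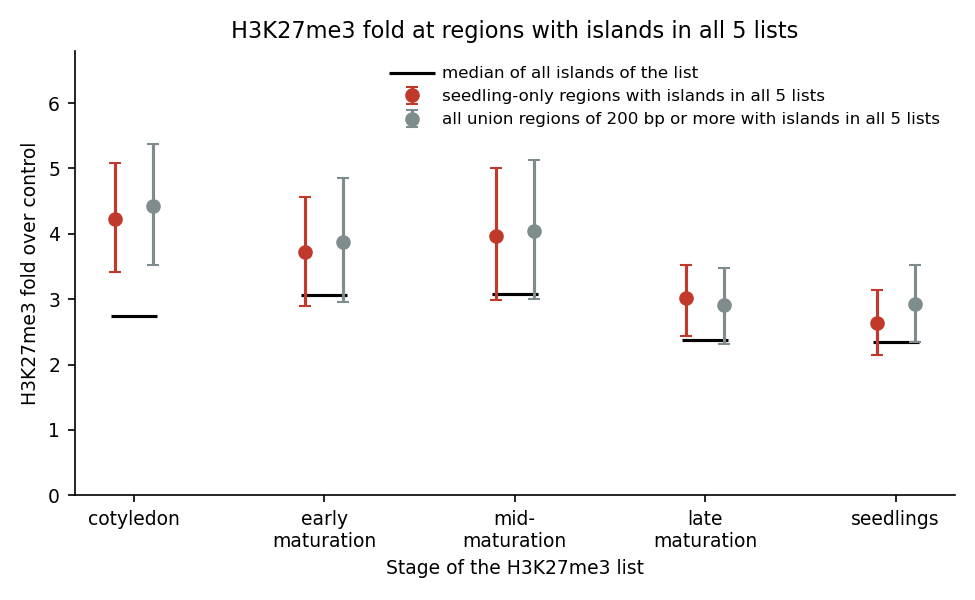
Deposited H3K27me3 fold over control by stage, as the median (point) and quartiles (bars), for the 919 seedling-only regions and the 8872 merged regions of at least 200 bp that overlap islands in all 5 lists, with the median of all islands of each list as a black line. The fold is that of the whole island overlapping a region most, not of the region itself. In seedlings the seedling-only median of 2.63 lies under the 2.93 of all such regions, as it also does at the cotyledon stage and at early and mid-maturation. At late maturation it lies above, 3.02 against 2.91.

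At 59 regions islands were present in all 4 embryo lists and absent in seedlings, although the clause kept only those whose mid-maturation island still met a seedling island elsewhere. Their median distance to the nearest seedling island was 1179 bp, with a range of 26 to 4726 bp, and 44 lay within 2 kb of it. No count over all merged regions is set beside the 59. Chosen after its values were seen, the strongest of these lay on chromosome 1 from 1333170 to 1334671, with a score of 90.7. Its islands had folds of 3.50, 4.86, 4.63 and 3.33 from the cotyledon stage to late maturation, and the nearest seedling island was 729 bp away. Islands covered 15.2, 10.2, 10.2 and 10.8 kb of the 20 kb around its centre in embryos, and 1.00 kb in seedlings. The strongest regions that the clause removed spanned 1382910 to 1385196 of chromosome 12 (score 97.2), and 12332669 to 12333505 (score 92.0) and 13867890 to 13870143 (score 80.4) of chromosome 8. As a group the 96 removed regions were wider and stronger than those kept, with a median width of 513 bp and a median score of 17.5.

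Many seedling-only regions lay near an H3K4me3 peak of the embryo, and regions of other single stages likewise lay near peaks of other stages. No share over all merged regions is given, since most of them hold an embryo peak themselves. An embryo peak was within 500 bp of 21.2% of them (19.9 to 22.5), within 2 kb of 45.3% (43.7 to 46.9) and within 10 kb of 85.5% (84.3 to 86.6), with a median distance of 2445 bp. Late-maturation-only regions lay within 2 kb of a peak of another stage in 47.9% of cases (45.8 to 50.1) and mid-maturation-only regions in 41.7% (39.5 to 44.0). The share was higher for early-maturation-only regions, 57.1% (53.2 to 60.8), and for cotyledon-only regions, 68.5% (64.9 to 72.0). Regions marked at all 5 stages made up 33502 of the 56109 merged regions of at least 200 bp. Of the 1685 seedling-only regions within 2 kb, 924 (54.8%) were that close to a region marked at all 5 stages. These neighbours of embryo peaks were narrower, with a median of 336 bp against 441 bp for the 2028 regions farther away, and had a median score of 8.69 against 11.3. They also overlapped fewer seedling islands, 26.5% (24.5 to 28.7) against 40.1% (38.0 to 42.3). Over the score classes, the share within 2 kb went from 53.8% in the lowest to 32.2% in the highest.

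Regions far from embryo H3K4me3 were more often under H3K27me3. Of the 534 regions over 10 kb from an embryo peak, 56% (51.8 to 60.1) overlapped a cotyledon island and 49.6% (45.4 to 53.9) a seedling island. Over all seedling-only regions these shares were 38.3% and 33.9%. Of the 534, 34.0% (30.1 to 38.2) lay in the central part of their chromosome, between 25 and 75% of its span, where 20% (18.7 to 21.3) of all seedling-only regions lay. The 3 most isolated regions were all on chromosome 4, from 32425179 to 32425446, from 32424486 to 32424881 and from 26397369 to 26398011, at least 264418 bp from any embryo peak. Their scores were 4.48, 7.75 and 36.6, and none overlapped an island.

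The central part, which holds most of the gene-poor pericentromeric sequence in soybean, held 740 of the 3705 regions on chromosomes (20%), against 21.6% of all merged regions. The share of seedling peaks that were seedling-only was 7.02% over the 20 chromosomes. It was lowest on chromosome 1, 5.94% (5.04 to 6.98), and highest on chromosome 9, 8.50% (7.49 to 9.63).

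The densest groups of regions were on chromosomes 9 and 12. On chromosome 9, 22 regions lay between 41520083 and 41575793, a span of 55.7 kb that held 1 other merged region present in more than 1 list and no region marked at all 5 stages. Their widths ran from 236 to 1320 bp, and their scores from 4.33 to 52.6 with a median of 11.5. Islands overlapped 13 of the 22 at late maturation, 4 at the cotyledon stage, 3 in seedlings, 2 at mid-maturation and 1 at early maturation. A second group on chromosome 9, from 38046515 to 38133563, held 9 regions with scores of 6.03 to 33.1, and none of them overlapped an island at any stage. The group on chromosome 12, from 3889454 to 3951074, held 9 regions with scores of 3.81 to 33.6, of which 8 overlapped an island at the cotyledon stage, 8 at late maturation and 6 each at early maturation, at mid-maturation and in seedlings.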

How the data were processed

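Per the submitters' processing notes, Bowtie 0.12.7, SAMtools 0.1.19, MACS2 and SICER 1.1 were used; the genome build is not given in the sources used here, and positions are those of the lists, counted from 1. The deposited H3K4me3 lists give 1 score per peak, whose scale is not stated. The deposited H3K27me3 lists, whose names carry the settings 200 (window, bp) and 600 (gap, bp), give read counts of ChIP and control, the authors' fold (a ratio of ChIP to control, scaled), and the authors' p-value and false discovery rate (FDR). The fold equalled the ratio of counts multiplied by 1 constant per list, lowest for cotyledon-stage embryos (1.32) and highest for early maturation (3.05). Islands summed to between 6837194 and 23990523 ChIP reads per list; library depth was not analysed here. Mid-maturation lists were matched to their samples by stage code. Only islands with an FDR up to 0.05 were used, so 474 were dropped from the late maturation list and 310 from that of seedlings.

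Merging, overlap and distances were computed in Python 3.11.15 with pandas 2.3.3 and checked on simulated lists. An overlap meant at least 1 bp. The central part runs from 25 to 75% of a chromosome's span as the lists show it. Classes of width and score were chosen after seeing the data. Alternatives changed the minimum width, the merging gap, the peaks entered, the islands used and the overlap. Regions named were the 15 of highest score, the 5 widest, the 5 strongest with a seedling island or with islands at all 5 stages, the 3 densest groups within 100 kb, the 3 farthest from embryo peaks, 3 on each side of the 200 bp minimum, and the 3 strongest removed by the clause. The region nearest to an embryo peak and the strongest of the 59 without a seedling island were added after their values were seen. Members and lists were chosen with earlier results of these data known. Nothing was tested against replicates, since the lists pool them.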

Additional observations from a re-analysis of the deposited data

Results flagged for a closer look

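Islands with an FDR above 0.05 in the deposited late maturation and seedling H3K27me3 lists entered no comparison. They still overlapped 26 of the 3719 seedling-only regions at late maturation, with folds over control of 1.01 to 1.14, and 5 in seedlings, with folds of 1.01 to 1.12.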

How the results depend on the processing

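No paired analysis was possible because the 2 replicates of a stage share 1 list, and no replicate could be left out. The depth of single libraries, and so the weakest peak each could show, was not analysed here. Why values moved was not tested. Of 100 values under alternatives, 55 stayed within the 95% interval of the main value or, for counts of regions, within 1.5 times of it. So did all values with the deposited H3K27me3 lists (3721 regions), without scaffolds (3705 regions) and with an overlap of 50% of the region. Counted among the 55 are the numbers kept of the 15 regions of highest score, given at the end, nearly all of them fixed in advance. Without a minimum width there were 5895 regions, with a median width of 252 bp, a median score of 7.07 and 50.8% within 2 kb of an embryo peak. At 400 bp there were 1806, with medians of 693 bp and 16.7, 37.8% within 2 kb, and 26.7% and 31.6% under mid-maturation and seedling islands. All merged regions of at least 400 bp gave 16.9% and 20.8% for these islands. Merging across gaps of 200 bp left 2768 regions, with medians of 497 bp and 10.8, 33.3% within 2 kb, and island shares of 41.9%, 32.4%, 31.7%, 38.9% and 37.1% from the cotyledon stage to seedlings. With equal numbers of peaks per list 2267 regions were left, with medians of 697 bp and 19.1, 31.5% within 2 kb, and island shares of 43.8%, 34.6%, 33.9%, 40.3% and 37.8%. All merged regions of these shortened lists gave 24.5%, 18.8%, 17.0%, 21.3% and 20.9%. With only seedling peaks at or above the list median, 109 were left, with medians of 1402 bp and 71.0. Of these, 27.5% lay within 2 kb and 16.5% in the central part. Their island shares were 31.2%, 18.3%, 15.6%, 21.1% and 16.5%. The last 4 were under the background of all merged regions, but that background lay within their intervals (10.7 to 24.6 for seedlings). Shared regions with scores at or above that median had lower shares, 11.2%, 8.10%, 6.22%, 9.22% and 7.59%. Islands with a fold of at least 3 overlapped 25.5%, 19.5%, 20.2%, 13.9% and 7.99% of the regions, where the background was 17.4%, 13.6%, 12.9%, 8.16% and 8.26%, so the seedling share lay under it. Leaving out the clause gave 3815 regions and 30.5% at mid-maturation. Distances of 500 bp and 10 kb gave 21.2% and 85.5%. Of the 15 regions of highest score, 14 remained among the chosen regions when merging across gaps. All 15 remained under the other settings that redefine the regions. None of those other settings could have removed any of them, so this says nothing of their stability.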
